A study of Homo sapiens with 12 samples.

Results

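EDTA was compared with NA in the Vector derivative of MCF10-A, an immortalised line of human breast epithelium that does not form tumours. The comparison used 4 of the 12 RNA-seq libraries in the series, chosen by their labels: Vector EDTA 1 and Vector EDTA 2 against Vector NA 1 and Vector NA 2. The other 8 libraries, from the B4-4 and Addback derivatives under the same treatment labels, entered the filter on low counts, the scaling, the estimate of the spread between replicates and a closing test of whether the EDTA effect differed between derivatives. A gene could therefore be tested on reads of the other derivatives, as was MMP10, a metalloproteinase gene with 0 counts in all 4 Vector libraries. All 4 Vector libraries came from cells that had been trypsinized and then held in detachment, without serum, on plates coated with poly-HEMA for 3 hours. Both sides of the comparison therefore shared the loss of matrix contact, and the EDTA label was the difference between them. The sources used here do not state what NA stands for, the dose and timing of EDTA, or how the Vector derivative was made. The labels do not say whether 2 libraries of a group came from separate cultures. The p-values therefore measure only how far these samples vary, which may be technical.

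EDTA is a chelator that binds calcium, magnesium, zinc, iron and other divalent metal ions. Cadherins, which join neighbouring epithelial cells, need extracellular calcium to hold their shape, and integrins need divalent cations to bind matrix. In keratinocytes, a rise of extracellular calcium is a well-known trigger of stratified differentiation, and calcium stored in the endoplasmic reticulum is needed by the chaperones that fold secreted proteins. MCF10-A cells in culture have many traits of basal epithelium, among them basal keratins and p63.

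The libraries held 21474080 and 22156173 counts in Vector EDTA, and 17377320 and 18915827 counts in Vector NA. Levels are given as CPM, counts per library size after TMM scaling, with replicate 1 before replicate 2. Such counts compare a gene between libraries and not with another gene, since they are not divided by length. The biological coefficient of variation between replicates was 10.2% in Vector EDTA and 3.00% in Vector NA, against 4.19% to 24.2% in the pairs of the other derivatives, of which B4-4 NA had the widest spread. Markers of basal mammary epithelium summed to 10050 and 10590 CPM of the total in Vector EDTA and to 13890 and 14020 CPM in Vector NA, and all 8 were detected. Markers of luminal mammary epithelium summed to 784.9 and 854.9 CPM in Vector EDTA and to 1128 and 1151 CPM in Vector NA. Markers of 4 other cell types were low in sum. Those of endothelium gave 23.0 and 25.3 CPM in Vector EDTA and 25.2 and 26.2 CPM in Vector NA, nearly all from PECAM1, with CDH5 at 0. Those of leukocytes gave 9.64 and 10.2 CPM in Vector EDTA and 13.5 and 14.8 CPM in Vector NA, nearly all from CD14, with CD3E and LYZ at 0. Those of smooth muscle gave 11.1 and 11.2 CPM in Vector EDTA and 10.2 and 10.8 CPM in Vector NA, most of it from ACTA2, with CNN1 at 0. Those of melanocytes gave 4.47 and 6.09 CPM in Vector EDTA and 2.65 and 3.33 CPM in Vector NA, with TYR at 0. Of these, MLANA rose, with 74 and 98 counts in Vector EDTA, against 24 and 39 in Vector NA (+1.21 ± 0.27, adjusted p = 0.0112), a call lost without Vector EDTA 2 (0.0797) or Vector NA 1 (0.145). All 37 genes of mitochondrial DNA were at 0 in the 12 libraries, so RNA quality could not be read from them. In bulk RNA, fewer cells of a kind and less RNA per cell cannot be told apart. No gene in the table checks the EDTA label itself. By mean log2 CPM, Vector EDTA was nearer to Addback NA than to Addback EDTA in 51.2% of the genes tested and in 61.4% of those called, and nearer to B4-4 NA than to B4-4 EDTA in 72.2% and 76.7%. Vector NA was nearer to Addback EDTA than to Addback NA in 57.6% of the genes tested and in 69.2% of those called, and nearer to B4-4 EDTA than to B4-4 NA in 35.5% and 47.9%. An exchange of the EDTA and NA labels in a derivative and an effect that differs between derivatives cannot be told apart, and every direction below holds for the libraries as labelled.

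Across all genes tested, EDTA went with lower levels of many genes of squamous differentiation, cell junctions, EGF-like ligands and the cell cycle. Several targets of the aryl hydrocarbon receptor, endoplasmic reticulum chaperones and mesenchymal genes were higher. Of 15749 genes tested, 2416 were called (15.3%) at an adjusted p under 0.05 by the quasi-likelihood test of edgeR, with Benjamini-Hochberg adjustment over all of them. Every adjusted p below comes from this test unless another is named, and a value in parentheses after a lost call is its adjusted p in that alternative. With EDTA, 1002 genes rose (6.36%) and 1414 fell (8.98%). At least a 2-fold change was seen in 801 called genes, 369 higher and 432 lower, and at least a 4-fold change in 273, of which 129 were higher and 144 lower. The median log2 fold change, EDTA minus NA, was 0.00 over all genes tested, 0.76 over those called higher and -0.72 over those called lower. The number called was 858 without Vector EDTA 1, 1540 without Vector EDTA 2, 752 without Vector NA 1, 724 without Vector NA 2, 4020 without B4-4 NA 1 and 3945 without B4-4 NA 2. Fitted on the 4 Vector libraries alone, the test called 4672 genes, which held 2390 of the 2416. The Vector EDTA libraries lay both above or both below the Vector NA libraries in 67.2% of all genes tested, and most genes named below were chosen as called, so the separations given for them are descriptions.

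**Figure D1:**
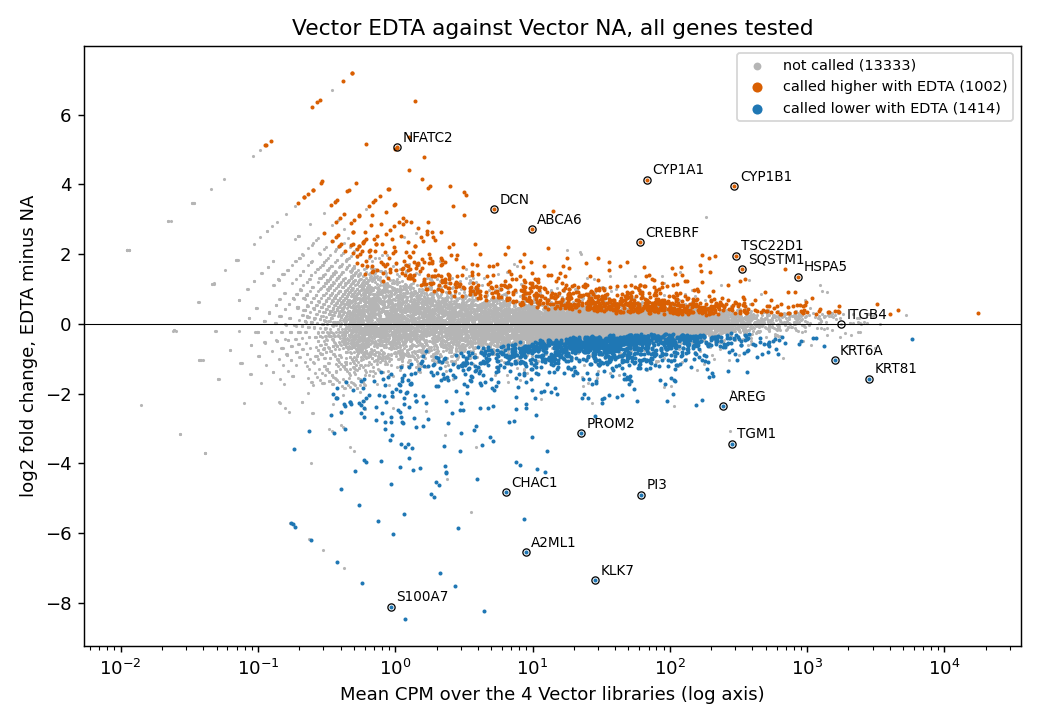
Each point is 1 of 15749 genes, placed by its mean CPM over the 4 Vector libraries (log axis) and its log2 fold change, EDTA minus NA; orange genes were called higher (1002), blue genes lower (1414) and grey genes were not called. KLK7, A2ML1 and PI3 stand far below 0, CYP1A1 and CYP1B1 far above it, and ITGB4 lies on it.

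The secreted serine proteases of the epidermis and their inhibitors fell, with the lowest medians of the lists tested. Kallikrein-related peptidases are made by differentiating keratinocytes, where KLK5 and KLK7 cut the proteins that hold cornified cells together. KLK7 (ENSG00000169035, chr19:50976482-50984099) stood at 0.278 and 0.399 CPM with EDTA, against 55.7 and 57.6 CPM with NA, a log2 fold change of -7.35 ± 0.90 (SE; adjusted p = 0.00224). KLK5 (ENSG00000167754, chr19:50943303-50953093) stood at 0.324 and 0.355 CPM with EDTA, against 16.6 and 17.2 CPM with NA (-5.61 ± 0.57, adjusted p = 0.000145). Both EDTA libraries lay far below both NA libraries, with reads of these genes almost absent. The neighbouring KLK8 had 0 and 5 counts with EDTA, against 64 and 67 with NA (-4.88 ± 0.74, adjusted p = 0.0016), and KLK10 had 0 and 1 counts with EDTA, against 161 and 170 with NA, a ratio of NA over EDTA of 398 (95% counting interval 70.9 to 1.58e+04). Membrane-bound proteases fell as well: PRSS8, prostasin, stood at 23.8 and 28.8 CPM with EDTA, against 58.97 and 59.5 CPM with NA (-1.17 ± 0.14, adjusted p = 0.000241). TMPRSS13 had 1 and 2 counts with EDTA, against 33 and 34 with NA, a ratio of NA over EDTA of 26.8 (95% counting interval 8.8 to 133). Of 10 tested genes of this list 9 fell (90%, against 8.98% of all genes), 0 rose and 1 was not called. The median log2 fold change was -4.67, beside 0.00 over all genes. A further 6 of the 16 listed genes had too few counts to test. No member named here overlapped between groups, where 67.2% of all genes tested did not.

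Inhibitors of these proteases moved the same way. SPINK5, whose product LEKTI restrains KLK5 and KLK7, was at 1.85 and 1.46 CPM with EDTA, against 11.6 and 11.9 CPM with NA (-2.82 ± 0.29, adjusted p = 0.000103). PI3, elafin, an elastase inhibitor that is also built into the cornified envelope, was at 3.43 and 4.61 CPM with EDTA, against 117 and 124 CPM with NA (-4.90 ± 0.59, adjusted p = 0.00218). A2ML1, an epidermal inhibitor related to alpha-2-macroglobulin, had 5 and 3 counts with EDTA, against 335 and 323 with NA, a ratio of NA over EDTA of 98.9 (95% counting interval 49.9 to 230). For each of these inhibitors the lowest NA library was several times the highest EDTA library. The serpin SERPINB5, maspin, was abundant and changed less, at 426 and 407 CPM with EDTA, against 629.9 and 616 CPM with NA (-0.58 ± 0.10, adjusted p = 0.00305). In the list of 11 tested inhibitors, which does not hold A2ML1, 6 fell (54.5%, against 8.98% of all genes). Of the rest 0 rose and 5 were not called, and the median of the list was -1.92. SPINK6 had no count in either EDTA library, and with it set at a floor of 3 counts over the group the median was again -1.92.

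**Figure D2:**
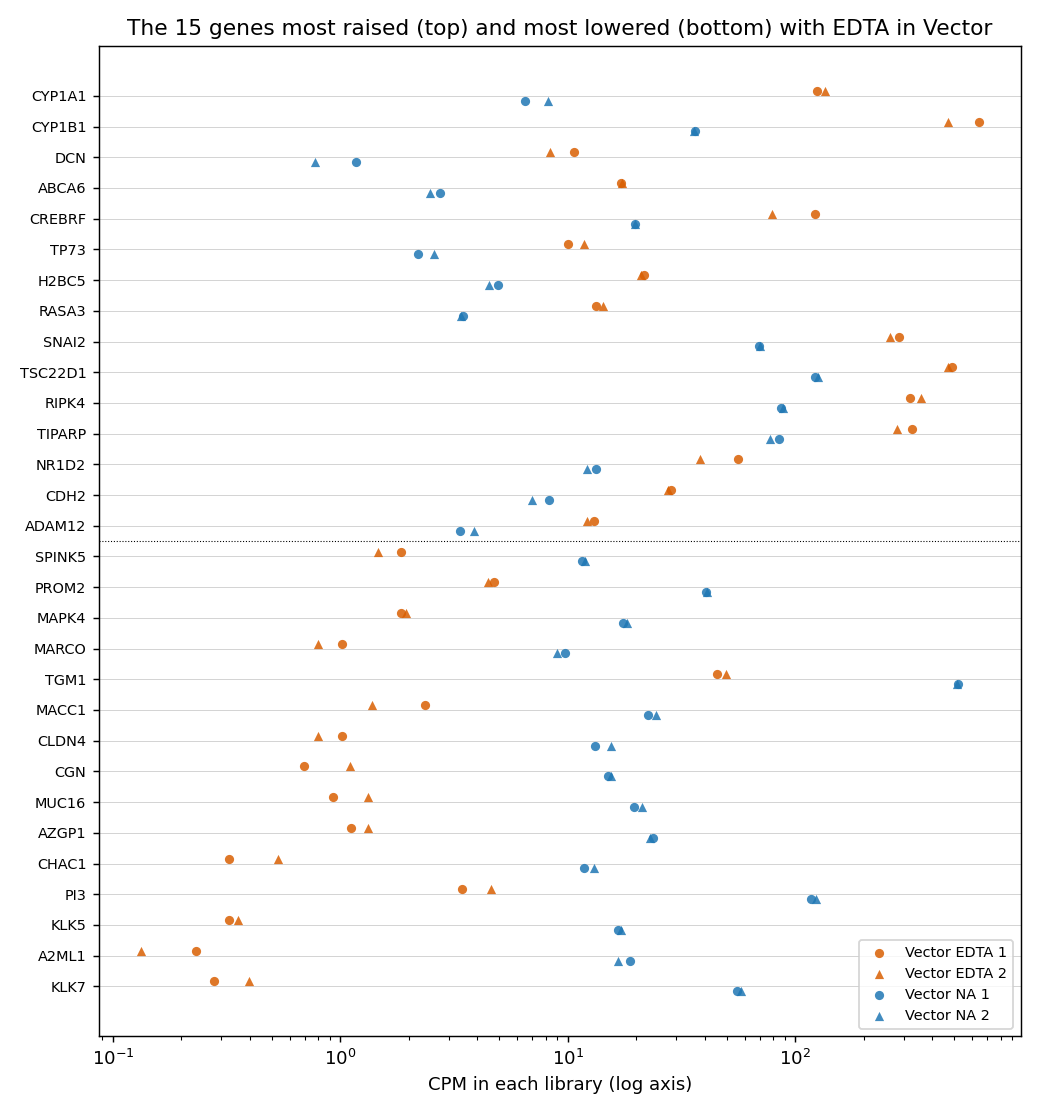
CPM (log axis) of the 15 genes with the largest called rise and the 15 with the largest called fall. Genes averaged 5 CPM or more, did not overlap between groups and had no clone, locus or antisense name. Orange marks Vector EDTA, blue Vector NA, circles replicate 1 and triangles replicate 2. Separation of the groups was a condition of the choice, and the plot shows the levels and the distance between replicates.

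Genes of the cornified envelope, the protein shell of terminally differentiated keratinocytes, fell in 9 of 19 tested cases (47.4%, against 8.98% of all genes). TGM1 (ENSG00000092295, chr14:24249114-24264432), the transglutaminase that cross-links the envelope, stood at 45.4 and 49.9 CPM with EDTA, against 518 and 513 CPM with NA (-3.44 ± 0.16, adjusted p = 5.88e-07). Its substrates of the small proline-rich family fell too, with SPRR1B at 20.8 and 20.1 CPM with EDTA, against 93.6 and 94.97 CPM with NA (-2.21 ± 0.26, adjusted p = 0.000435). SPRR1A had 4 and 3 counts with EDTA, against 64 and 79 with NA (-4.54 ± 0.48, adjusted p = 0.000116). Involucrin, IVL, had 2 and 5 counts with EDTA, against 58 and 49 with NA, and sciellin, SCEL, had 0 and 1 counts with EDTA, against 93 and 109 with NA, for which the ratio of NA over EDTA was 243 (95% counting interval 43.1 to 9.64e+03). The EDTA libraries lay below the NA libraries for all of these, as in 34.6% of all genes tested. The list's median was -0.82, also with SPRR2E, at 0 counts in both EDTA libraries, set at its floor. TGM5, another transglutaminase of the epidermis, rose against the rest, with 28 and 15 counts with EDTA, against 3 and 1 with NA, a ratio of EDTA over NA of 8.94 (95% counting interval 3.25 to 34.3). Filaggrin, FLG (-0.72, adjusted p = 0.508), was not called. The number of members called lower was 4 leaving out Vector EDTA 1, and the number called higher was 0 leaving out Vector EDTA 1 or Vector NA 2. SPRR genes are close relatives and may share reads.

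Keratins fell in 7 of 16 tested cases (43.8%, against 8.98% of all genes), with 0 higher. The stress-inducible keratin KRT16, which is made by activated keratinocytes, stood at 55.8 and 66.7 CPM with EDTA, against 277 and 283 CPM with NA (-2.19 ± 0.14, adjusted p = 4.67e-06). Its partner KRT6A stood at 1011 and 1066 CPM with EDTA, against 2131 and 2141 CPM with NA (-1.04 ± 0.10, adjusted p = 8.26e-05). The related KRT6B was at 12.4 and 12.6 CPM with EDTA, against 56.6 and 51.8 CPM with NA (-2.12 ± 0.26, adjusted p = 0.00071). The groups did not overlap for any of the KRT6 genes or KRT16, as in 67.2% of all genes tested. Near-identical copies of these genes may share reads. KRT13, a keratin of stratified mucosa, had 1 and 0 counts with EDTA, against 27 and 28 with NA, a ratio of NA over EDTA of 66.1 (95% counting interval 11.4 to 2.66e+03). The hair keratin KRT81 stood at 1306 and 1559 CPM with EDTA, against 4262 and 4258 CPM with NA (-1.57 ± 0.40, adjusted p = 0.0409). The stress keratin KRT17 (-0.23, adjusted p = 0.337) was not called, and the median of the list was -0.62. Of the basal pair KRT5 fell, at 4874 and 5055 CPM with EDTA, against 6664 and 6782 CPM with NA (-0.44 ± 0.12, adjusted p = 0.0257), a call lost without Vector EDTA 1 (0.195), Vector EDTA 2 (0.0929), Vector NA 1 (0.148), Vector NA 2 (0.172), B4-4 EDTA 1 (0.0542) or B4-4 EDTA 2 (0.0542). Its partner KRT14 (-0.63, adjusted p = 0.135; 0.000173 in the 4 Vector libraries alone) was not called, nor was TP63, the p63 transcription factor of basal cells (-0.07, adjusted p = 0.82). The number of keratins called lower was 4 leaving out Vector EDTA 1 or Vector EDTA 2.

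Some transcription factors and secreted proteins that accompany differentiation fell. GRHL1, a grainyhead-like factor of epithelial barriers, stood at 5.51 and 4.17 CPM with EDTA, against 14.5 and 14.7 CPM with NA (-1.59 ± 0.24, adjusted p = 0.00131), and OVOL1, which restrains keratinocyte growth, had 2 and 5 counts with EDTA, against 38 and 51 with NA (-3.85 ± 0.59, adjusted p = 0.00134). ELF3, an epithelial ETS factor, stood at 0.695 and 1.37 CPM with EDTA, against 4.93 and 5.09 CPM with NA (-2.26 ± 0.36, adjusted p = 0.00153). Each was lower in both EDTA libraries, as were 34.6% of all genes tested. Of 18 tested factors 6 fell (33.3%, against 8.98% of all genes), 0 rose and 12 were not called, with a median of -0.57. The count lower was 3 leaving out Vector NA 1 or Vector NA 2 and 10 leaving out B4-4 NA 1 or B4-4 NA 2. The count higher was 1 leaving out Addback EDTA 1 or Addback EDTA 2. S100A7, psoriasin, a secreted antimicrobial protein, had 0 counts in both EDTA libraries and 34 and 35 counts in the NA libraries, at least 27.6-fold lower at a floor of 3 counts over the EDTA group; its call was lost without Vector EDTA 1 (0.0506). S100A3, by contrast, rose at 24.6 and 26.1 CPM with EDTA, against 7.90 and 8.02 CPM with NA (+1.67 ± 0.28, adjusted p = 0.00318). In the S100 family 2 of 13 tested genes rose (15.4%, against 6.36% of all genes) and 3 fell (23.1%, against 8.98%). The median was 0.03 with S100A7 fitted or at its floor. The number called lower was 0 leaving out Vector EDTA 1 and 5 leaving out B4-4 NA 1 or B4-4 NA 2, and the number called higher was 1 leaving out Vector EDTA 1, Vector EDTA 2, Vector NA 1, Vector NA 2, B4-4 EDTA 1, B4-4 EDTA 2, Addback NA 1 or Addback NA 2. Among barrier lipid genes 3 of 7 tested fell (42.9%, against 8.98% of all genes) and 0 rose, with a median of -0.43. They include ABCA12, the lipid transporter of lamellar granules, at 131 and 122 CPM with EDTA, against 245 and 237 CPM with NA (-0.93 ± 0.16, adjusted p = 0.00252), and SULT2B1, which makes cholesterol sulphate, with 4 and 6 counts with EDTA, against 88 and 77 with NA (-4.25 ± 0.68, adjusted p = 0.00168).

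**Figure D3:**
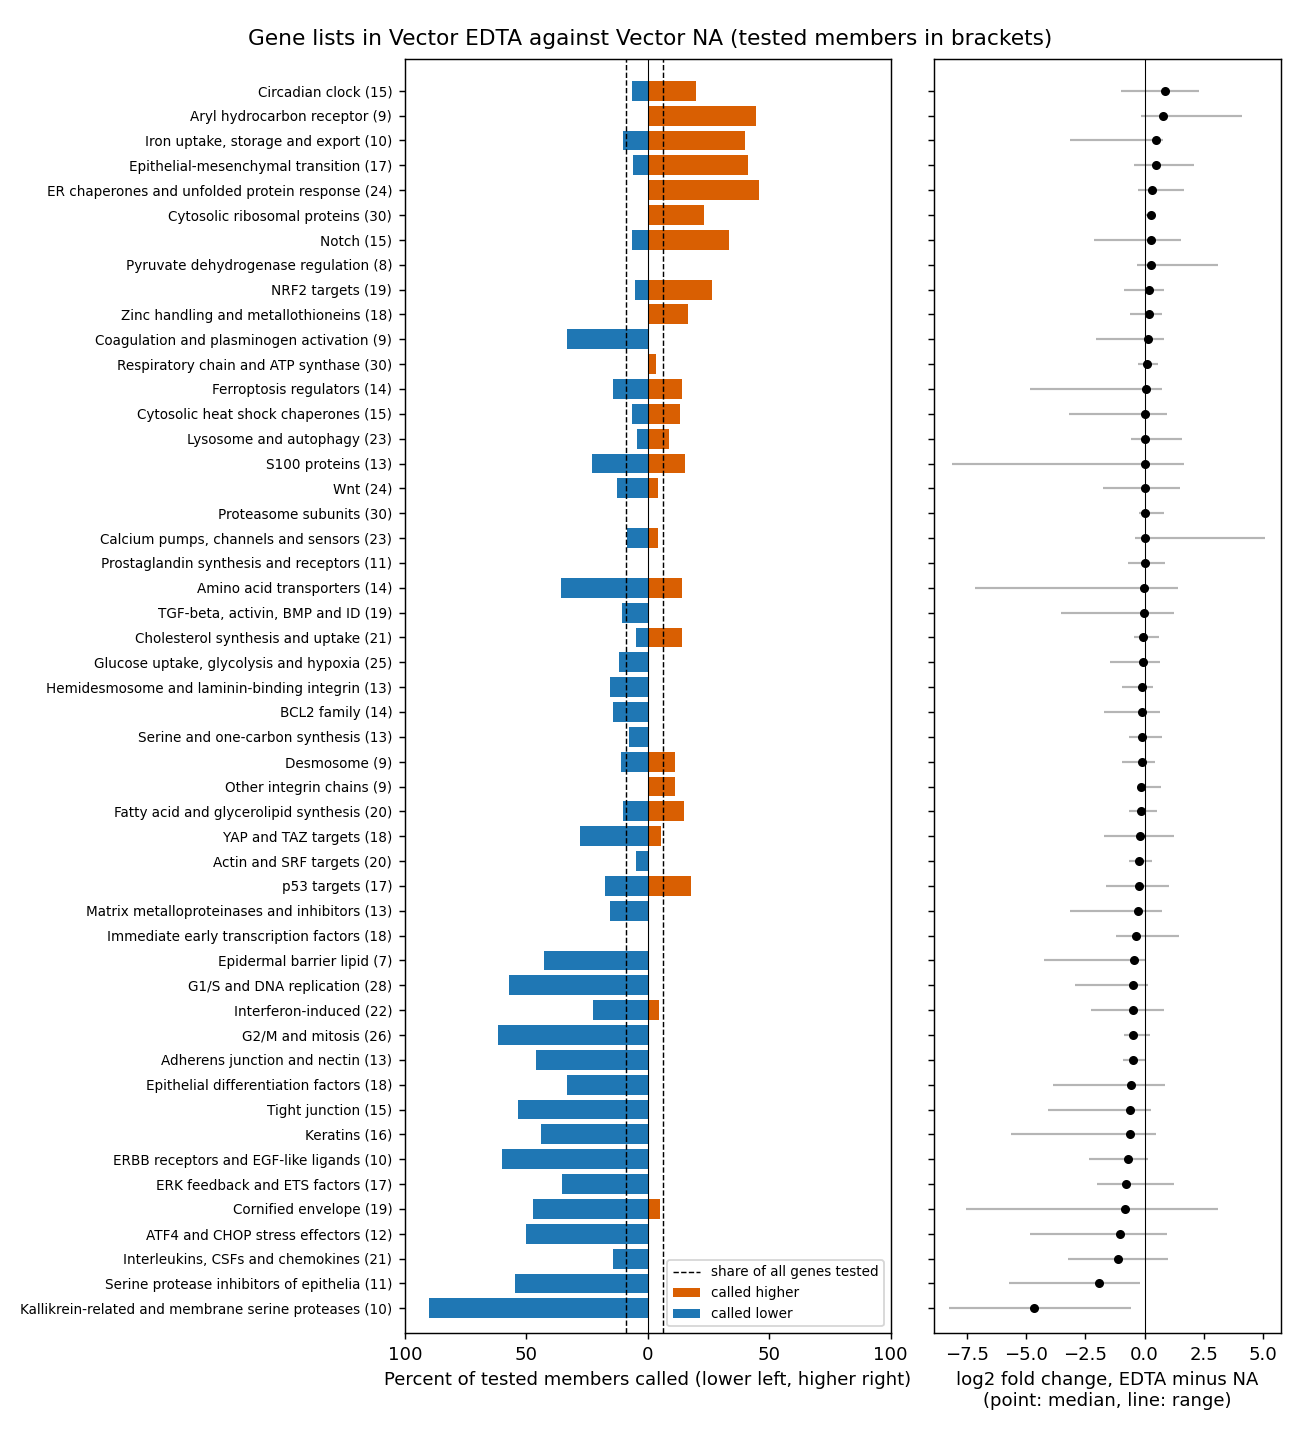
Left, the percent of the tested members of each gene list that were called lower (blue, to the left) or higher (orange, to the right) with EDTA, with dashed lines at the shares over all genes, 8.98% and 6.36%; right, the median log2 fold change (point) and the range of the members (line). Kallikrein and membrane serine proteases lie lowest, with 9 of 10 called lower, and the lists of the aryl hydrocarbon receptor and of endoplasmic reticulum chaperones hold no lower call.

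Of junction genes, 46.2% of adherens junction and nectin genes, 53.3% of tight junction genes and 11.1% of desmosome genes fell, against 8.98% of all genes, and 15.4% of genes of hemidesmosomes and laminin-binding integrins. E-cadherin, CDH1, stood at 199.96 and 192 CPM with EDTA, against 335 and 347 CPM with NA (-0.80 ± 0.16, adjusted p = 0.00684). The CDH1 call was lost without Vector EDTA 1 (0.0554). P-cadherin, CDH3, stood at 442 and 454 CPM with EDTA, against 746 and 742 CPM with NA (-0.73 ± 0.14, adjusted p = 0.00528). The CDH3 call was lost without Vector EDTA 1 (0.0531). CTNND1, p120 catenin, which steadies cadherins at the membrane, stood at 277 and 272 CPM with EDTA, against 385 and 394 CPM with NA (-0.50 ± 0.09, adjusted p = 0.00315). The nectin-like receptor PVR stood at 30.3 and 31.3 CPM with EDTA, against 59.4 and 57.7 CPM with NA (-0.92 ± 0.15, adjusted p = 0.00151). For these genes both EDTA libraries were below both NA libraries, as in 34.6% of all genes tested. Of 13 adherens junction and nectin genes 6 fell and 0 rose, with a median of -0.50, whereas CTNNB1, beta-catenin, was at 0.00 (adjusted p = 1) and CTNNA1, alpha-catenin, at +0.06 (adjusted p = 0.717). NECTIN4 stood at 10.8 and 11.7 CPM with EDTA, against 16.5 and 14.5 CPM with NA (-0.47 ± 0.34, adjusted p = 0.39), which was not called. The number called lower was 3 leaving out Vector EDTA 1.

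Tight junctions seal the space between epithelial cells. CGN, cingulin, which lies on their inner face, stood at 0.695 and 1.11 CPM with EDTA, against 14.97 and 15.4 CPM with NA (-4.06 ± 0.51, adjusted p = 0.000709). The claudin CLDN7 stood at 80.5 and 90.7 CPM with EDTA, against 197 and 205 CPM with NA (-1.23 ± 0.19, adjusted p = 0.00192). Tricellulin, MARVELD2, was at 27.8 and 27.4 CPM with EDTA, against 41.6 and 41.96 CPM with NA (-0.60 ± 0.11, adjusted p = 0.00315). The groups were apart in all of these, as in 67.2% of all genes tested. CLDN4, another claudin, stood at 1.02 and 0.798 CPM with EDTA, against 13.2 and 15.5 CPM with NA (-3.98 ± 0.72, adjusted p = 0.00869). The CLDN4 call was lost without Vector EDTA 1 (0.0748), Vector EDTA 2 (0.0641) or Vector NA 2 (0.0515). Of 15 tested tight junction genes 8 fell and 0 rose, with a median of -0.60. TJP1, the scaffold ZO-1, was at +0.03 (adjusted p = 0.902). The number called lower was 3 leaving out Vector EDTA 1, Vector EDTA 2 or Vector NA 2, 4 leaving out Vector NA 1 and 5 leaving out Addback NA 1 or Addback NA 2, and the number called higher was 1 leaving out B4-4 NA 1 or B4-4 NA 2. In the desmosome 1 of 9 tested genes rose and 1 fell, with a median of -0.12. The faller was the desmosomal cadherin DSG3, at 441 and 386 CPM with EDTA, against 648 and 628 CPM with NA (-0.63 ± 0.16, adjusted p = 0.0232), whose call was lost without Vector EDTA 1 (0.0755), Vector EDTA 2 (0.119), Vector NA 1 (0.113) or Vector NA 2 (0.0909). The riser was plakophilin PKP2, at 208 and 191 CPM with EDTA, against 148 and 149 CPM with NA (+0.43 ± 0.13, adjusted p = 0.0483), which lost its call in 12 alternatives, among them leaving out any of the 4 Vector libraries. The desmosome count higher was 0 leaving out Vector EDTA 1, Vector EDTA 2, Vector NA 1, Vector NA 2, B4-4 EDTA 1, B4-4 EDTA 2, Addback EDTA 1, Addback EDTA 2, Addback NA 1 or Addback NA 2 and 2 leaving out B4-4 NA 1 or B4-4 NA 2, and the count lower was 0 leaving out Vector EDTA 1, Vector EDTA 2, Vector NA 1 or Vector NA 2 and 2 leaving out Addback EDTA 1 or Addback EDTA 2.

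The chains of the laminin receptor of hemidesmosomes did not change detectably. ITGB4, the beta 4 chain, stood at 1678 and 1850.3 CPM with EDTA, against 1775 and 1780.1 CPM with NA (-0.01 ± 0.28, adjusted p = 0.987). ITGA6, the alpha 6 chain, was at 899.6 and 805 CPM with EDTA, against 839 and 835 CPM with NA (+0.03 ± 0.13, adjusted p = 0.918). The groups overlapped in both genes. Among the 13 genes of hemidesmosomes and laminin-binding integrins 0 rose and 2 fell, with a median of -0.09: ITGA3 (-0.48 ± 0.13) and PLEC (-0.39 ± 0.11). The count was 0 leaving out Vector EDTA 1, Vector NA 1 or Vector NA 2, 1 leaving out B4-4 EDTA 1 or B4-4 EDTA 2 and 4 leaving out B4-4 NA 1 or B4-4 NA 2, and the count higher was 1 leaving out B4-4 NA 1 or B4-4 NA 2. Of 9 other integrin chains 1 rose, ITGA10, at 54.2 and 63.2 CPM with EDTA, against 36.8 and 36.1 CPM with NA (+0.68 ± 0.17, adjusted p = 0.017). The ITGA10 call was lost without Vector EDTA 1 (0.0515), Vector EDTA 2 (0.13), Vector NA 1 (0.122) or Vector NA 2 (0.144), and the median was -0.14. The count higher of these chains was 0 leaving out Vector EDTA 1, Vector EDTA 2, Vector NA 1 or Vector NA 2 and 2 leaving out B4-4 NA 1 or B4-4 NA 2, and the count lower was 1 leaving out B4-4 NA 1 or B4-4 NA 2.

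Of 7 tested EGF-like growth factors 4 fell. Several of these ligands bind EGFR, whose own transcript was at +0.16 (adjusted p = 0.598). EPGN, epigen, stood at 34.01 and 33.9 CPM with EDTA, against 154 and 158 CPM with NA (-2.20 ± 0.13, adjusted p = 2.41e-06), TGFA at 34.5 and 34.3 CPM with EDTA, against 82.3 and 82.3 CPM with NA (-1.26 ± 0.19, adjusted p = 0.00165) and EREG, epiregulin, at 11.03 and 7.84 CPM with EDTA, against 37.7 and 37.6 CPM with NA (-1.997 ± 0.32, adjusted p = 0.00396). AREG, amphiregulin, stood at 80.3 and 78.97 CPM with EDTA, against 409 and 411 CPM with NA (-2.36 ± 0.36, adjusted p = 0.00473). The AREG call was lost without Vector EDTA 1 (0.0592). For these 4 ligands both EDTA libraries were below both NA libraries, as in 34.6% of all genes tested. HBEGF (-0.80, adjusted p = 0.536), BTC (-0.19, adjusted p = 0.717) and NRG1 (-0.36, adjusted p = 0.256) were not called, and the receptors ERBB2 (-0.48 ± 0.13, adjusted p = 0.0245) and ERBB3 (-0.64 ± 0.17, adjusted p = 0.0237) fell. Of 10 tested receptors and ligands 6 fell (60%, against 8.98% of all genes) and 0 rose, with a median of -0.72. The count lower was 3 leaving out Vector EDTA 1. Feedback genes of the ERK pathway, which these receptors switch on, fell in 6 of 17 cases (35.3%, against 8.98% of all genes). They rose in 0, with a median of -0.77. ETV5, an ETS factor, stood at 79.4 and 77.7 CPM with EDTA, against 127 and 124 CPM with NA (-0.68 ± 0.09, adjusted p = 0.000404) and kept its call under every alternative. Sprouty, SPRY2, stood at 5.93 and 6.07 CPM with EDTA, against 22.8 and 25.3 CPM with NA (-2.001 ± 0.41, adjusted p = 0.0117). The SPRY2 call was lost without Vector EDTA 1 (0.11), Vector EDTA 2 (0.0787), Vector NA 1 (0.0698) or Vector NA 2 (0.0905). The number of feedback genes called lower was 1 leaving out Vector EDTA 1, Vector EDTA 2, Vector NA 1 or Vector NA 2 and 11 leaving out B4-4 NA 1 or B4-4 NA 2, and called higher 1 leaving out B4-4 NA 1 or B4-4 NA 2. Of 18 immediate early transcription factors 0 were called, with FOS at -0.59 (adjusted p = 0.811) and EGR1 at -0.71 (adjusted p = 0.756). At an unadjusted p under 0.05, 2 were higher and 1 lower, and DESeq2 called 1 higher. The number called was 3 higher and 5 lower leaving out B4-4 NA 1, 3 higher and 6 lower leaving out B4-4 NA 2, 2 higher leaving out Addback EDTA 1 or Addback EDTA 2, and 5 higher and 9 lower in the 4 Vector libraries alone.

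Among called genes averaging 5 CPM or more the largest rises were those of CYP1A1 and CYP1B1, targets of the aryl hydrocarbon receptor. It is a ligand-activated transcription factor that binds GCGTG with its partner ARNT and induces xenobiotic-metabolising enzymes. CYP1A1 (ENSG00000140465, chr15:74719542-74725610), a cytochrome P450, stood at 125 and 135 CPM with EDTA, against 6.50 and 8.23 CPM with NA (+4.13 ± 0.68, adjusted p = 0.00921). The CYP1A1 call was lost without Vector NA 1 (0.102) or Vector NA 2 (0.0922). CYP1B1 (ENSG00000138061, chr2:38066973-38109902), a related enzyme, stood at 641 and 469.5 CPM with EDTA, against 36.1 and 36.04 CPM with NA (+3.94 ± 0.32, adjusted p = 0.000147). TIPARP, an ADP-ribosyltransferase that limits the receptor, stood at 325 and 282 CPM with EDTA, against 85.03 and 77.6 CPM with NA (+1.90 ± 0.19, adjusted p = 0.000116). The repressor AHRR, which competes with the receptor for ARNT, had 38 and 36 counts with EDTA, against 3 and 1 with NA, a ratio of EDTA over NA of 15.4 (95% counting interval 5.76 to 58). All 4 genes were higher in both EDTA libraries, as were 32.6% of all genes tested, and by several times. They were 4 of 9 tested genes of the list to rise (44.4%, against 6.36% of all genes), with 0 falling and a median of 0.76. The receptor gene AHR itself (-0.17, adjusted p = 0.581), ARNT (+0.10, adjusted p = 0.568) and the shared target NQO1 (+0.06, adjusted p = 0.66) were not called. Reads of CYP1B1 cannot be told from those of its antisense neighbour CYP1B1-AS1, which stood at 23.7 and 27.03 CPM with EDTA, against 2.58 and 2.83 CPM with NA (+3.23 ± 0.25, adjusted p = 1.68e-05), since the sources used here do not state a strand setting.

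The promoters of CYP1A1 and TIPARP, both called higher, are shown with GCGTG, on either strand, in capitals. AHRR rose more than TIPARP (+3.88 against +1.90). Its promoter, with 1 match against 2 in TIPARP, is not printed. The sequences run 250 bases before to 50 after the start, 5′ to 3′ on the strand of the gene, from RefSeq on GRCh38.p14.
CYP1A1 (chr15:74725479-74725778, - strand): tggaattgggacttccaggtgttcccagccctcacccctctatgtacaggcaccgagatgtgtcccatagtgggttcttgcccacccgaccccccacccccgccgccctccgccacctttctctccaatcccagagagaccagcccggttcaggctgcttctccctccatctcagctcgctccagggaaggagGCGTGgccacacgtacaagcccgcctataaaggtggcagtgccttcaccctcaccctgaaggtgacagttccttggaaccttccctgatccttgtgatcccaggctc
TIPARP (chr3:156674340-156674639, + strand): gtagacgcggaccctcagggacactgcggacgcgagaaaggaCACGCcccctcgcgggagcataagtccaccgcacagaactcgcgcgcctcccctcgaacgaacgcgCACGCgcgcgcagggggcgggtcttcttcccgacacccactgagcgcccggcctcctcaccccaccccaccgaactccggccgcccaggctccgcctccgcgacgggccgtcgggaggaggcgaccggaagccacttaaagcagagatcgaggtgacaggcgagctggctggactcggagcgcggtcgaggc
The motif occurred in 6 of 8 list members with a promoter entry. It was in 3 of the 3 that rose and had one, and in 3 of 4 that were not called. It is short, and 36.3% of 27305 promoters of this length held it. A match is a description of the letters and no measure of binding.

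Several chaperones of the endoplasmic reticulum rose. HSPA5 (ENSG00000044574, chr9:125234853-125241330), the chaperone BiP that binds unfolded proteins in the lumen, stood at 1224 and 1262 CPM with EDTA, against 486 and 490.2 CPM with NA (+1.35 ± 0.11, adjusted p = 2.07e-05). DNAJB9, a BiP co-chaperone, stood at 72.8 and 59.5 CPM with EDTA, against 20.9 and 21.3 CPM with NA (+1.65 ± 0.15, adjusted p = 5.28e-05). DNAJC3, another, was at 233 and 190.5 CPM with EDTA, against 110.03 and 109.5 CPM with NA (+0.95 ± 0.12, adjusted p = 0.000334). XBP1, the transcription factor spliced on IRE1 activation, stood at 257 and 267 CPM with EDTA, against 169 and 174 CPM with NA (+0.61 ± 0.10, adjusted p = 0.00188). Its spliced form is not resolved in counts by gene. In each case both EDTA libraries were above both NA libraries, as in 32.6% of all genes tested. HERPUD1 (+1.01 ± 0.18) and SEL1L (+0.72 ± 0.14), of protein degradation from the reticulum, and HSP90B1 (+0.51 ± 0.10), the chaperone GRP94, were also called higher. Of 24 tested genes of the unfolded protein response 11 rose (45.8%, against 6.36% of all genes) and 0 fell, with a median of 0.31. The calcium-binding chaperone CALR, calreticulin (+0.25, adjusted p = 0.083), and the sensors ATF6 (+0.03) and ERN1 (-0.10) were not called. The number called higher was 5 leaving out Vector NA 2, 6 leaving out Vector NA 1 and 7 leaving out Vector EDTA 1, and the number called lower was 1 leaving out B4-4 NA 1 or B4-4 NA 2.

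The endoplasmic reticulum stress element, a CCAAT box and CCACG with 9 bases between them, is the motif of this pathway that ATF6 and its partner NF-Y bind. It is printed in capitals, on either strand, in the promoters of HSPA5, HSP90B1 and XBP1, which hold it and whose genes rose; the sequences come from the same source and window.
HSPA5 (chr9:125241294-125241593, - strand): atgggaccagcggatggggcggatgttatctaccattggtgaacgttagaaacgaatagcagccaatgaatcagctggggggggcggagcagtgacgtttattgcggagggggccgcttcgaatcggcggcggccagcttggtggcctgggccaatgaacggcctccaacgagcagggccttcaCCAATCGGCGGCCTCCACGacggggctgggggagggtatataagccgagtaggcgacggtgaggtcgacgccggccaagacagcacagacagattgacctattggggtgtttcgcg
HSP90B1 (chr12:103930160-103930459, + strand): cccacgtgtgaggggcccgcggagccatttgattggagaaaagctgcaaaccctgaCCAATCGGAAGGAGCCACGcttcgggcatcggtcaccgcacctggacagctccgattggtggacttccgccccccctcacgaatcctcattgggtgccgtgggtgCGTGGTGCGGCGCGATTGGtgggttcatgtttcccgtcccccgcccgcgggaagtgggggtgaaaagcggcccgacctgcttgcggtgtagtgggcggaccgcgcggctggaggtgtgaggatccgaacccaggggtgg
XBP1 (chr22:28800520-28800819, - strand): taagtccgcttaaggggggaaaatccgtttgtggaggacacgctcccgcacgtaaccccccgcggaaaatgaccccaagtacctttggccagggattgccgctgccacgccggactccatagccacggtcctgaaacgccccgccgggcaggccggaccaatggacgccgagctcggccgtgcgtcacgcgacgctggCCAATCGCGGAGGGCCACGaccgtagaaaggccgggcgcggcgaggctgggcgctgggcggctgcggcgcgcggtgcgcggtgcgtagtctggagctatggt
HSP90B1 carried 2 matches, and HSPA5 and XBP1 1 each. Among list members with a promoter entry the element was in 4 of 11 that rose and in 3 of 11 that were not called, against 0.0806% of 27305 promoters. 

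**Figure D4:**
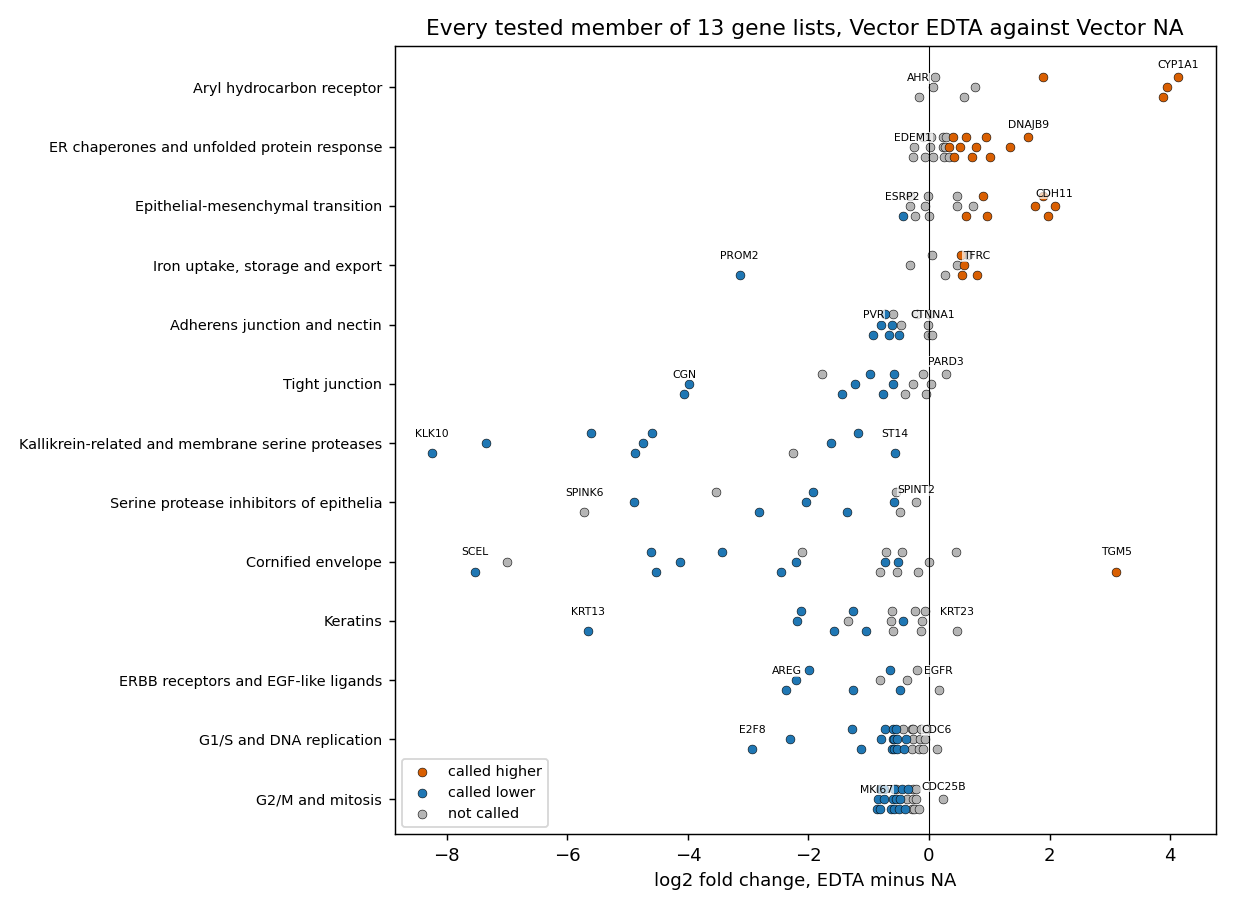
Log2 fold change, EDTA minus NA, of every tested member of 13 gene lists; orange members were called higher, blue lower, grey not called, and the lowest and highest member of each list carry their names. The protease and envelope lists reach below -7, and the aryl hydrocarbon receptor list reaches 4.13 with CYP1A1.

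Several genes of the ATF4 and CHOP arm of the stress response fell. Of this arm 50% fell, and of amino acid transporters 35.7%, against 8.98% of all genes. Serine and one-carbon genes, at 7.69%, and cytosolic heat shock genes, at 6.67%, were below that share. Called higher were 14.3% of the transporters and 13.3% of the heat shock genes, against 6.36% of all genes. TRIB3, a pseudokinase target of ATF4 and CHOP, stood at 105 and 116 CPM with EDTA, against 300.3 and 288 CPM with NA (-1.42 ± 0.11, adjusted p = 1.19e-05). STC2, the secreted glycoprotein stanniocalcin 2, was at 42.6 and 44.1 CPM with EDTA, against 143 and 142 CPM with NA (-1.71 ± 0.14, adjusted p = 2.16e-05). CHAC1, an ATF4 target that degrades glutathione, stood at 0.324 and 0.532 CPM with EDTA, against 11.8 and 13.1 CPM with NA (-4.83 ± 0.48, adjusted p = 8.85e-05). CEBPB stood at 59.5 and 65.7 CPM with EDTA, against 162 and 148 CPM with NA (-1.31 ± 0.16, adjusted p = 0.000292). All 4 were lower in both EDTA libraries, as were 34.6% of all genes tested. Of 12 members 6 fell and 0 rose, with a median of -1.06, while ATF4 was at +0.02 (adjusted p = 0.949) and DDIT3, which encodes CHOP, at +0.94 (adjusted p = 0.251). The count higher of this arm was 1 leaving out B4-4 NA 1 or B4-4 NA 2. Serine and one-carbon enzymes, many of them ATF4 targets, had 1 of 13 lower, PSPH at 39.3 and 38.9 CPM with EDTA, against 61.99 and 63.6 CPM with NA (-0.68 ± 0.11, adjusted p = 0.0014), and a median of -0.11. Their count higher was 1 leaving out Addback EDTA 1 or Addback EDTA 2 and 2 leaving out B4-4 NA 1 or B4-4 NA 2, and the count lower was 2 leaving out B4-4 NA 1 or B4-4 NA 2. Amino acid transporters went both ways, with 2 of 14 higher, 5 lower and a median of -0.03. SLC38A2 stood at 1184 and 946 CPM with EDTA, against 583 and 544 CPM with NA (+0.92 ± 0.15, adjusted p = 0.00193), and SLC6A14 had 0 and 1 counts with EDTA, against 88 and 67 with NA, a ratio of NA over EDTA of 186 (95% counting interval 33 to 7.41e+03). The number of transporters called lower was 2 leaving out Vector EDTA 1, Vector NA 1 or Vector NA 2 and 3 leaving out Vector EDTA 2, and called higher 1 leaving out Vector EDTA 1, Vector NA 1 or Vector NA 2. Cytosolic heat shock genes had 2 of 15 higher, 1 lower and a median of 0.03. DNAJB4, a co-chaperone, was one of the risers, at 39.9 and 30.05 CPM with EDTA, against 19.8 and 16.7 CPM with NA (+0.94 ± 0.16, adjusted p = 0.00235). Of these calls the number higher was 1 leaving out Vector EDTA 1, Vector NA 1 or Vector NA 2, and the number lower was 0 leaving out Vector EDTA 1, Vector EDTA 2, Vector NA 1, Vector NA 2, Addback NA 1 or Addback NA 2 and 4 leaving out Addback EDTA 1 or Addback EDTA 2.

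Of genes that handle the metals EDTA binds, 13% were called for calcium, 16.7% for zinc and 50% for iron, against 15.3% of all genes. For calcium, 1 of 23 tested pumps, channels and sensors rose, 2 fell, and the median was 0.00. The riser was NFATC2, a transcription factor activated by calcineurin, with 46 and 43 counts with EDTA, against 0 and 2 with NA, a ratio of EDTA over NA of 37 (95% counting interval 9.95 to 310). The store-operated calcium sensor STIM1 fell slightly, at 65.05 and 70.1 CPM with EDTA, against 90.1 and 87.7 CPM with NA (-0.40 ± 0.11, adjusted p = 0.0266). The STIM1 call was lost without Vector EDTA 1 (0.168), Vector NA 1 (0.168) or Vector NA 2 (0.128). The reticulum pump ATP2A2, at -0.03 (adjusted p = 0.88), was not called. The number called lower was 0 leaving out Vector EDTA 1, Vector NA 1 or Vector NA 2, and the number called higher was 2 leaving out Addback NA 1 or Addback NA 2, 3 leaving out Addback EDTA 1 or Addback EDTA 2, 5 leaving out B4-4 NA 2 and 6 leaving out B4-4 NA 1. For zinc, 3 of 18 tested genes rose and 0 fell, with a median of 0.17. SLC39A14, the importer ZIP14, which carries zinc and iron, stood at 261 and 257 CPM with EDTA, against 161 and 155 CPM with NA (+0.71 ± 0.11, adjusted p = 0.00168), with the EDTA libraries above the NA libraries. Metallothionein MT2A, a metal-responsive store of zinc, was at +0.31 (adjusted p = 0.622). The number of zinc genes called higher was 1 leaving out Vector EDTA 1, Vector NA 1, Vector NA 2, B4-4 EDTA 1, B4-4 EDTA 2, Addback NA 1 or Addback NA 2 and 5 leaving out Addback EDTA 1 or Addback EDTA 2, and called lower 1 leaving out B4-4 NA 1 or B4-4 NA 2.

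For iron, 4 of 10 tested genes rose and 1 fell, with a median of 0.50. TFRC, the transferrin receptor, stood at 170.1 and 156 CPM with EDTA, against 96.2 and 92.6 CPM with NA (+0.79 ± 0.14, adjusted p = 0.00283). NCOA4, which carries ferritin to lysosomes, was at 351 and 329 CPM with EDTA, against 238 and 229.6 CPM with NA (+0.54 ± 0.09, adjusted p = 0.00169). The ferritin chains rose too, FTH1 at 919 and 1071 CPM with EDTA, against 676 and 696 CPM with NA (+0.54 ± 0.10, adjusted p = 0.00426) and FTL at +0.58 ± 0.16. The groups did not overlap for TFRC, NCOA4 or FTH1, although the FTH1 call was lost without Vector EDTA 2 (0.0518), Vector NA 1 (0.0694) or Vector NA 2 (0.0556). PROM2, prominin 2, linked to ferritin export, was the faller, at 4.73 and 4.48 CPM with EDTA, against 40.4 and 40.8 CPM with NA (-3.14 ± 0.15, adjusted p = 5.88e-07). The number of iron genes called higher was 2 leaving out Vector EDTA 2, Vector NA 1 or Vector NA 2, and called lower 2 leaving out B4-4 NA 1, B4-4 NA 2, Addback EDTA 1 or Addback EDTA 2. Ferroptosis regulators had 2 of 14 higher and 2 lower (14.3% each, against 6.36% and 8.98% of all genes), with a median of 0.04. GPX4, the lipid peroxide reductase, at +0.56 (adjusted p = 0.0571) was not called. The count higher was 1 leaving out Vector EDTA 1, Vector NA 1 or Vector NA 2, and the count lower was 1 leaving out Vector EDTA 2, Vector NA 1 or Vector NA 2 and 4 leaving out B4-4 NA 1 or B4-4 NA 2. Targets of NRF2, the antioxidant regulator, had 5 of 19 higher (26.3%, against 6.36% of all genes), 1 lower and a median of 0.20. NFE2L2, which encodes NRF2, stood at 322 and 275 CPM with EDTA, against 178 and 181 CPM with NA (+0.74 ± 0.12, adjusted p = 0.00169). AKR1C2, an aldo-keto reductase with near-identical copies, was at 71.7 and 72.8 CPM with EDTA, against 41.8 and 41.4 CPM with NA (+0.80 ± 0.15, adjusted p = 0.00369). The number of NRF2 targets called higher was 1 leaving out Vector EDTA 2, Vector NA 1 or Vector NA 2, 2 leaving out B4-4 EDTA 1, B4-4 EDTA 2, Addback NA 1 or Addback NA 2 and 3 leaving out Vector EDTA 1, and called lower 0 leaving out Vector EDTA 2, Vector NA 1 or Vector NA 2, 2 leaving out Addback EDTA 1 or Addback EDTA 2 and 3 leaving out B4-4 NA 1 or B4-4 NA 2.

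Several mesenchymal genes rose. SNAI2, the repressor Slug that lowers E-cadherin, stood at 285 and 261 CPM with EDTA, against 69.2 and 70.3 CPM with NA (+1.97 ± 0.27, adjusted p = 0.0016). N-cadherin, CDH2, stood at 28.5 and 27.5 CPM with EDTA, against 8.24 and 6.94 CPM with NA (+1.88 ± 0.30, adjusted p = 0.00302). Vimentin, VIM, was at 674 and 608 CPM with EDTA, against 351 and 335 CPM with NA (+0.90 ± 0.16, adjusted p = 0.00325). Both EDTA libraries lay above both NA libraries in each, as in 32.6% of all genes tested. Of 17 tested genes of epithelial-mesenchymal transition 7 rose (41.2%, against 6.36% of all genes) and 1 fell, with a median of 0.47. ZEB1 (-0.32), TWIST1 (-0.02) and fibronectin, FN1 (-0.07), were not called. The count higher was 3 leaving out Vector EDTA 1 or Vector NA 2 and 4 leaving out Vector NA 1, and the count lower was 0 leaving out Vector EDTA 1, Vector NA 1, Vector NA 2, B4-4 EDTA 1, B4-4 EDTA 2, Addback NA 1 or Addback NA 2 and 2 leaving out B4-4 NA 1 or B4-4 NA 2. Fibroblast markers moved with these genes, summing to 30.9 and 31.2 CPM of the total in the EDTA libraries, against 16.7 and 15.6 CPM in the NA libraries. Of the 5 tested among 8 such markers 2 rose (40%, against 6.36% of all genes), DCN and POSTN. DCN, decorin, stood at 10.6 and 8.38 CPM with EDTA, against 1.18 and 0.771 CPM with NA (+3.28 ± 0.55, adjusted p = 0.0044), a call lost without Vector NA 2. POSTN, periostin, had 51 and 37 counts with EDTA, against 2 and 0 with NA. The collagen COL1A1 had 307 and 390 counts with EDTA, against 228 and 236 with NA (+0.34 ± 0.21, adjusted p = 0.293), and was not called. COL1A2 had 0 and 0 counts with EDTA, against 0 and 3 with NA, COL3A1 2 and 2 counts, against 0 and 1, and PDGFRA 0 and 0 counts, against 0 and 1. The part of these markers in the mesenchymal result was not tested.

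Of signalling genes of cell fate, 40.0% were called for Notch, 33.3% for YAP and TAZ targets, 16.7% for Wnt, 10.5% for TGF-beta and 5.00% for actin and SRF targets, against 15.3% of all genes. JAG1, a Notch ligand, stood at 187 and 178 CPM with EDTA, against 77.1 and 77.3 CPM with NA (+1.24 ± 0.12, adjusted p = 7.42e-05), and 5 of 15 tested Notch genes rose, with 1 lower and a median of 0.27. NRARP, a Notch target, stood at 251 and 246 CPM with EDTA, against 84.5 and 88.9 CPM with NA (+1.52 ± 0.30, adjusted p = 0.0115). The NRARP call was lost with no filter on low counts (0.0568) or without Vector EDTA 1 (0.0774), Vector EDTA 2 (0.0581), Vector NA 1 (0.113) or Vector NA 2 (0.106). Both genes were higher in each EDTA library, and the target HES1 was not called, at -0.89 (adjusted p = 0.229). The number of Notch genes called higher was 1 leaving out Vector EDTA 2, Vector NA 1 or Vector NA 2 and 2 leaving out Vector EDTA 1. The receptor NOTCH3 was the gene called lower (-2.13 ± 0.45), and the count lower was 0 leaving out Vector EDTA 1, Vector EDTA 2, Vector NA 1 or Vector NA 2 and 2 leaving out B4-4 NA 1 or B4-4 NA 2. Of 24 Wnt genes 1 rose and 3 fell, with a median of 0.03. RNF43, which removes Wnt receptors from the surface, stood at 9.13 and 7.67 CPM with EDTA, against 19.3 and 18.1 CPM with NA (-1.16 ± 0.21, adjusted p = 0.00316). The Wnt count lower was 1 leaving out Vector EDTA 1, Vector EDTA 2, Vector NA 1 or Vector NA 2 and 5 leaving out B4-4 NA 1 or B4-4 NA 2, and higher 0 leaving out Vector EDTA 1, Vector NA 1 or Vector NA 2 and 3 leaving out B4-4 NA 1, B4-4 NA 2, Addback EDTA 1 or Addback EDTA 2. Of 18 YAP and TAZ targets 1 rose and 5 fell, with a median of -0.18, among them the junction scaffold AJUBA at 41.6 and 40.7 CPM with EDTA, against 71.97 and 76.2 CPM with NA (-0.85 ± 0.09, adjusted p = 0.00012); CCN1 (+0.31) and CCN2 (+0.21) were not called. The YAP and TAZ count lower was 2 leaving out Vector EDTA 1, Vector EDTA 2, Vector NA 1 or Vector NA 2, and higher 0 leaving out Vector NA 1 or Vector NA 2 and 3 leaving out B4-4 NA 1 or B4-4 NA 2. Of 19 TGF-beta, activin, BMP and ID genes 0 rose and 2 fell, with a median of -0.04. ID1, an inhibitor of helix-loop-helix factors, stood at 11.5 and 11.97 CPM with EDTA, against 53.2 and 51.6 CPM with NA (-2.16 ± 0.27, adjusted p = 0.00079), with the groups apart. That count was 1 leaving out Vector EDTA 1, Vector EDTA 2, Vector NA 1 or Vector NA 2, 4 leaving out B4-4 NA 2 and 5 leaving out B4-4 NA 1, and the count higher was 1 leaving out B4-4 NA 1 or B4-4 NA 2 and 2 leaving out Addback EDTA 1 or Addback EDTA 2. Of 20 actin and SRF target genes 1 fell, ACTN4 (-0.53 ± 0.14), with a median of -0.22, and the count was 0 leaving out Vector EDTA 1, Vector EDTA 2, Vector NA 1 or Vector NA 2 and 3 leaving out B4-4 NA 1, B4-4 NA 2, Addback EDTA 1 or Addback EDTA 2.

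Many cell cycle genes fell. E2F2, a transcription factor of S phase entry, stood at 2.78 and 3.24 CPM with EDTA, against 15.8 and 14.1 CPM with NA (-2.31 ± 0.22, adjusted p = 6.03e-05). RRM2, the subunit of ribonucleotide reductase made in S phase, was at 113 and 105 CPM with EDTA, against 261 and 268 CPM with NA (-1.28 ± 0.14, adjusted p = 0.000142). CDC25A, a phosphatase that activates cyclin-dependent kinases, stood at 9.17 and 9.31 CPM with EDTA, against 19.5 and 20.7 CPM with NA (-1.12 ± 0.16, adjusted p = 0.000764). The EDTA libraries were below the NA libraries for each, at about the same level in both replicates. Of 28 genes of G1/S and DNA replication 16 fell (57.1%, against 8.98% of all genes), 0 rose and 12 were not called. Their median was -0.48, and PCNA (-0.04) and E2F1 (-0.13) were among those not called. The number called lower was 7 leaving out Vector EDTA 1 or Vector NA 2 and 8 leaving out Vector NA 1. Of 26 mitotic genes 16 also fell (61.5%) and 0 rose, with a median of -0.49. TPX2, a spindle factor, stood at 213 and 213 CPM with EDTA, against 359 and 357 CPM with NA (-0.75 ± 0.08, adjusted p = 0.000154). KIF23, a motor of cytokinesis, stood at 69.7 and 65.1 CPM with EDTA, against 123 and 121 CPM with NA (-0.85 ± 0.11, adjusted p = 0.000326). CCNA2, cyclin A2, was at 88.5 and 69.4 CPM with EDTA, against 143 and 135 CPM with NA (-0.82 ± 0.11, adjusted p = 0.000591). No mitotic gene named here overlapped between groups, where 67.2% of all genes tested did not. The number of mitotic genes called lower was 10 leaving out Vector EDTA 2, Vector NA 1 or Vector NA 2. The cell cycle homology region, TTTGAA or TTCGAA on either strand, was in 8 of 13 promoters of mitotic genes that fell and in 5 of 7 of those not called, against 16.6% of 27305 promoters.

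Of targets of p53 35.3% were called and of the BCL2 family 14.3%, against 15.3% of all genes. GDF15, a secreted stress cytokine that p53 can induce, stood at 13.1 and 15.2 CPM with EDTA, against 44.8 and 43.7 CPM with NA (-1.64 ± 0.26, adjusted p = 0.0019), lower in both EDTA libraries. Of 17 p53 targets 3 rose and 3 fell, with a median of -0.22, and the cell cycle inhibitor CDKN1A (-0.52, adjusted p = 0.0562) was not called. The count higher was 0 leaving out Vector NA 2 and 1 leaving out Vector EDTA 1 or Vector NA 1, and the count lower was 1 leaving out Vector EDTA 1, Vector EDTA 2 or Vector NA 1 and 6 leaving out B4-4 NA 1 or B4-4 NA 2. Of 14 BCL2 family genes 0 rose and 2 fell, with a median of -0.11. The survival gene BCL2L1 fell, at 38.8 and 39.3 CPM with EDTA, against 65.9 and 60.3 CPM with NA (-0.69 ± 0.17, adjusted p = 0.0189). HRK, which promotes cell death, fell too, at 1.25 and 1.68 CPM with EDTA, against 4.82 and 4.88 CPM with NA (-1.72 ± 0.50, adjusted p = 0.0387). The count was 0 leaving out Vector EDTA 1, Vector EDTA 2, Vector NA 1 or Vector NA 2, 1 leaving out B4-4 EDTA 1, B4-4 EDTA 2, Addback NA 1 or Addback NA 2, 4 leaving out B4-4 NA 1 and 5 leaving out B4-4 NA 2, and the count higher was 1 leaving out B4-4 NA 2. BCL2L11, the death gene BIM of detached epithelium, at +0.55 (adjusted p = 0.206) was not called.

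Of inflammatory and proteolytic genes, 14.3% of interleukins and related cytokines, 27.3% of interferon-induced genes, 33.3% of coagulation genes and 15.4% of metalloproteinases and their inhibitors were called, against 15.3% of all genes. IL1RN, the antagonist of the interleukin 1 receptor, stood at 10.3 and 10.7 CPM with EDTA, against 28.1 and 29.4 CPM with NA (-1.45 ± 0.18, adjusted p = 0.000346), with both EDTA libraries below the NA libraries. Of 21 tested interleukins, colony-stimulating factors and chemokines 3 fell and 0 rose, with a median of -1.11. CXCL8, interleukin 8, stood at 10.3 and 8.38 CPM with EDTA, against 47.4 and 42.2 CPM with NA (-2.26 ± 1.15, adjusted p = 0.244) and was not called; the 4 Vector libraries alone gave 1.84e-05. The count lower was 1 leaving out Vector EDTA 1 or Vector NA 1 and 13 leaving out B4-4 NA 1 or B4-4 NA 2. Of 22 tested interferon-induced genes 1 rose and 5 fell, with a median of -0.48. The riser was IRF1, an interferon regulatory factor, at 41.05 and 44.8 CPM with EDTA, against 22.8 and 25.5 CPM with NA (+0.83 ± 0.14, adjusted p = 0.00215). The number of interferon-induced genes called lower was 0 leaving out Vector NA 1, 1 leaving out Vector EDTA 2 or Vector NA 2, 2 leaving out Vector EDTA 1, 3 leaving out B4-4 EDTA 1, B4-4 EDTA 2, Addback NA 1 or Addback NA 2, 8 leaving out B4-4 NA 1, Addback EDTA 1 or Addback EDTA 2 and 10 leaving out B4-4 NA 2. PLAUR, the receptor of the plasminogen activator urokinase, stood at 13.9 and 14.1 CPM with EDTA, against 57.2 and 58.7 CPM with NA (-2.05 ± 0.20, adjusted p = 8.35e-05). It was among 3 of 9 tested coagulation genes that fell, with 0 higher and a median of 0.14. The coagulation count lower was 1 leaving out Vector EDTA 1, Vector EDTA 2, Vector NA 1 or Vector NA 2, and the count higher was 2 by DESeq2 and 2 leaving out B4-4 NA 1, B4-4 NA 2, Addback EDTA 1 or Addback EDTA 2. TIMP3, an inhibitor of metalloproteinases held in the matrix, stood at 73.01 and 74.4 CPM with EDTA, against 165 and 160.1 CPM with NA (-1.14 ± 0.09, adjusted p = 2.16e-05). MMP28, epilysin, was at 56.6 and 66.7 CPM with EDTA, against 114 and 115 CPM with NA (-0.90 ± 0.15, adjusted p = 0.00214). They were the 2 of 13 tested genes of that list to fall, with 0 higher and a median of -0.29, and the count lower was 4 leaving out B4-4 NA 1, and higher 1 leaving out B4-4 NA 1 or B4-4 NA 2. Of 11 prostaglandin genes 0 were called, with a median of 0.00. At an unadjusted p under 0.05, 1 was higher and 1 lower, and DESeq2 called 1 lower. The edgeR count lower was 2 leaving out B4-4 NA 1 or B4-4 NA 2 and 1 leaving out Addback EDTA 1 or Addback EDTA 2.

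Other large rises fell outside these lists. CREBRF, which restrains the stress factor CREB3, stood at 122 and 78.9 CPM with EDTA, against 19.7 and 19.8 CPM with NA (+2.35 ± 0.20, adjusted p = 3.22e-05). ABCA6, a member of the ABC lipid transporter family, stood at 17.1 and 17.2 CPM with EDTA, against 2.75 and 2.47 CPM with NA (+2.72 ± 0.23, adjusted p = 2.86e-05). TSC22D1, a leucine zipper regulator induced by TGF-beta, stood at 488 and 472 CPM with EDTA, against 122 and 126 CPM with NA (+1.95 ± 0.14, adjusted p = 1.16e-05). RIPK4, a kinase needed for epidermal differentiation, was at 320.5 and 358 CPM with EDTA, against 86.6 and 88.8 CPM with NA (+1.95 ± 0.22, adjusted p = 0.000362). RASA3, a GTPase-activating protein for Ras, stood at 13.3 and 14.3 CPM with EDTA, against 3.48 and 3.39 CPM with NA (+2.003 ± 0.22, adjusted p = 0.000142). H2BC5, a histone H2B gene with near-identical copies, was at 21.6 and 20.9 CPM with EDTA, against 4.93 and 4.52 CPM with NA (+2.17 ± 0.22, adjusted p = 9.36e-05). In all 6 the EDTA libraries stood above the NA libraries, and all kept the call under every alternative. Separation of the groups was a condition for naming these and the other genes of this paragraph. ADAM12, a metalloproteinase (+1.79 ± 0.34, adjusted p = 0.005), lost its call without Vector NA 1 (0.0664) or Vector NA 2 (0.0507). TP73, a relative of p53 (+2.19 ± 0.44, adjusted p = 0.0068), lost it without Vector NA 1 (0.0905) or Vector NA 2 (0.072). Among further falls MACC1, a regulator of MET expression, stood at 2.36 and 1.37 CPM with EDTA, against 22.5 and 24.5 CPM with NA (-3.65 ± 0.34, adjusted p = 8.46e-05). MARCO, a scavenger receptor, was at 1.02 and 0.798 CPM with EDTA, against 9.70 and 8.998 CPM with NA (-3.36 ± 0.38, adjusted p = 0.000183), with the groups apart. AZGP1, a secreted glycoprotein (-4.25 ± 0.69, adjusted p = 0.00563), lost its call without Vector EDTA 1 (0.0623). The mucin MUC16 (-4.17 ± 0.91, adjusted p = 0.0239) lost it with no filter on low counts (0.0592) or without Vector EDTA 1 (0.15), Vector EDTA 2 (0.1), Vector NA 1 (0.0963), Vector NA 2 (0.106), B4-4 EDTA 1 (0.0501) or B4-4 EDTA 2 (0.0503). MAPK4, an atypical kinase (-3.23 ± 0.61, adjusted p = 0.00901), lost it without Vector EDTA 1 (0.0855), Vector EDTA 2 (0.0595) or Vector NA 2 (0.0518).

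Some list members with wide and replicated differences were not called in the 12-library test. PDK4, the kinase that shuts off pyruvate dehydrogenase, stood at 358 and 300.3 CPM with EDTA, against 40.5 and 37.4 CPM with NA (+3.08 ± 0.81, adjusted p = 0.0509). PER2, a circadian repressor, stood at 36.8 and 35.6 CPM with EDTA, against 9.59 and 8.48 CPM with NA (+2.003 ± 0.65, adjusted p = 0.0859). MYC was at 521 and 543 CPM with EDTA, against 216 and 229 CPM with NA (+1.26 ± 0.39, adjusted p = 0.0716). The claudin CLDN1 stood at 50.9 and 41.9 CPM with EDTA, against 160.1 and 157 CPM with NA (-1.77 ± 0.59, adjusted p = 0.0953). DDIT4, an inhibitor of mTORC1, stood at 34.8 and 35.1 CPM with EDTA, against 183 and 176 CPM with NA (-2.36 ± 0.67, adjusted p = 0.0621). The laminin chain LAMB3 was at 422 and 473 CPM with EDTA, against 879.8 and 880.2 CPM with NA (-0.97 ± 0.33, adjusted p = 0.0845). In each the replicates lay close and the groups did not overlap. With the 4 Vector libraries alone the adjusted p was 1.86e-06 for PDK4, 1.61e-05 for PER2, 9.96e-06 for MYC, 1.75e-05 for CLDN1, 1.79e-06 for DDIT4 and 5.17e-05 for LAMB3. These genes were chosen after their values were seen. The 12-library test shares 1 estimate of the spread with B4-4 NA and Addback EDTA, whose replicates were the farthest apart, at 24.2% and 18.8%. Whether that spread kept these genes from a call was not tested.

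The EDTA effect in Vector was last set against the mean EDTA effect of B4-4 and Addback, in 1 contrast over the 12 libraries. The difference passed the test in 4633 genes (29.4%), 2129 higher and 2504 lower in Vector, and 2091 of the 2416 genes called in Vector were among them. Of the 30 genes with the largest changes 29 passed. The exception was ADAM12 (+0.86 ± 0.41, adjusted p = 0.135). The called genes and these 30 were picked for their change in Vector, which also enters the difference. Their passing was thereby favoured by the choice and is a description. For CYP1B1 the log2 fold change was +3.94 in Vector, -4.77 in B4-4 and -2.13 in Addback, so that the direction was opposite in the other derivatives (difference +7.39 ± 0.41, adjusted p = 8.58e-06). Its level was 6.52 and 5.64 CPM in B4-4 EDTA and 156 and 177 CPM in B4-4 NA, and 141 and 68.5 CPM in Addback EDTA and 450.2 and 466 CPM in Addback NA. KLK7 was at 11.5 and 10.1 CPM in B4-4 EDTA and 15.3 and 35.6 CPM in B4-4 NA, and at 3.27 and 14.96 CPM in Addback EDTA and 0.0559 and 0.0542 CPM in Addback NA (difference -10.34 ± 1.19, adjusted p = 0.000835). In both genes the Vector EDTA libraries lay nearer to Addback NA than to Addback EDTA. TGM1 fell in Vector (-3.44) and stood at -1.88 in B4-4 and +0.99 in Addback (difference -2.99 ± 0.18, adjusted p = 1.36e-06). The number of genes with a difference was 2680 without Vector NA 1 and 2618 without Vector NA 2.

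**Figure D5:**
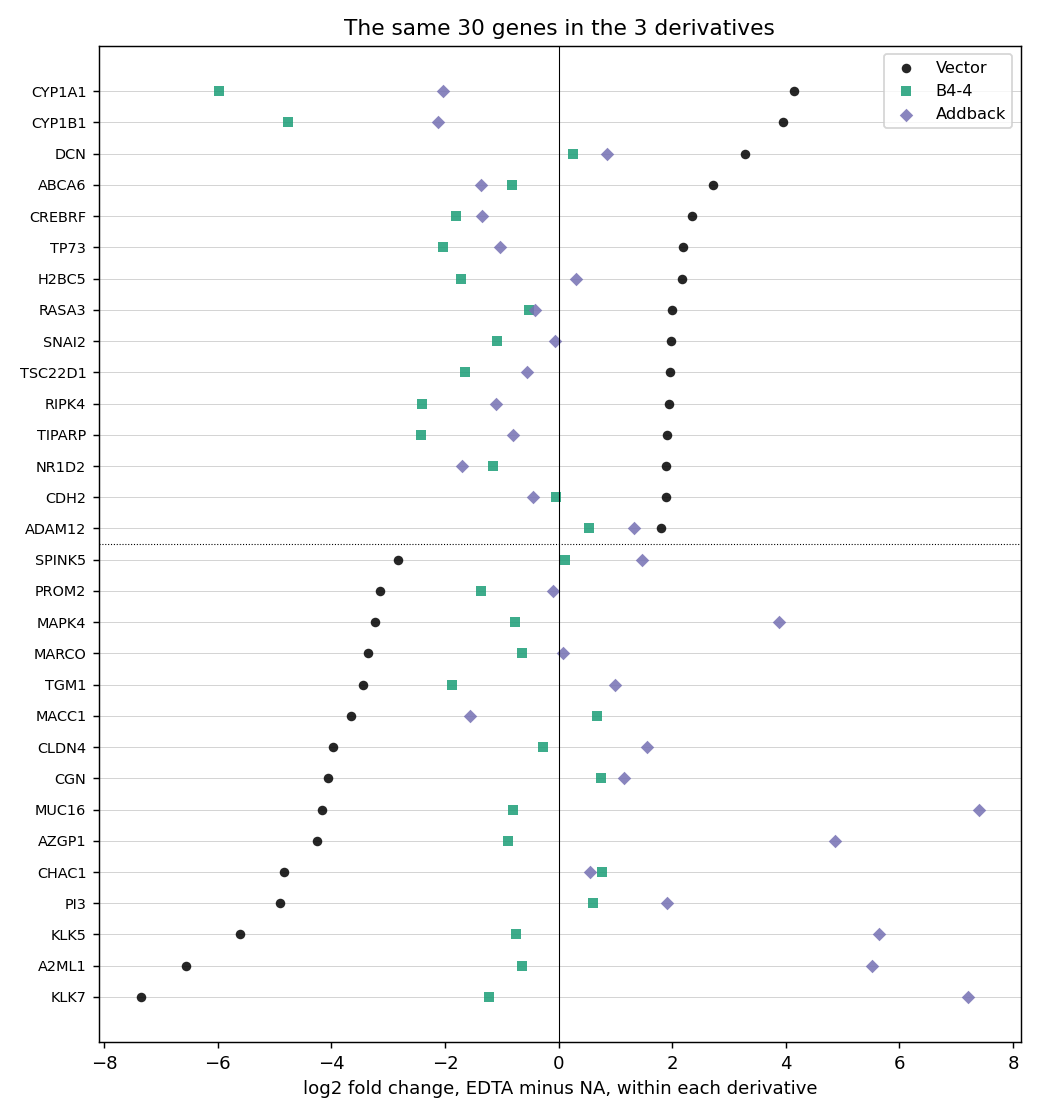
Log2 fold change, EDTA minus NA, of the 15 genes most raised (top) and the 15 most lowered (bottom) in Vector (black circles), with the same genes in B4-4 (green squares) and Addback (purple diamonds). In Vector CYP1A1 is at 4.13 and KLK7 at -7.35, while in Addback CYP1A1 is below 0 and KLK7 above it.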

How the data were processed

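The table the authors deposited holds raw, whole-number counts by Ensembl gene for 12 libraries. Per the submitters' processing notes the tools were TopHat2 2.1.1, SAMtools 1.4.1 and featureCounts 1.5.3; builds GRCh38, hg19 and hg38 appear there with no role. The sources used here state neither strand setting nor annotation release, and antisense or near-identical genes may share reads. Of 58233 genes 57895 matched a GENCODE 29 entry by identifier, and coordinates are 1-based on GRCh38. In R 4.3.3 with edgeR 4.0.16, filterByExpr over 6 groups left 15749 genes, which held at least 99.866% of each library's counts, and TMM scaling and robust quasi-likelihood fits used all 12 libraries. Totals ranged from 15685376 to 22156173. Standard errors (±) are log2 fold changes over the root of the F statistic. Counting intervals are exact at 95% on library totals and, like the floor of 3 counts, cover counting error only. Named genes are ITGB4, ITGA6, NECTIN4 and PROM2, with those of the next rules. They include the 15 largest called changes per direction with a mean of at least 5 CPM and no overlap between groups. Clone, locus and antisense names, such as CYP1B1-AS1, were left out of these 15. Named too are up to 4 called members of each of 57 gene lists with the smallest p. Other list members are given as background, chosen after their values were seen. The members and lists were chosen with earlier results of these data known. Alternatives were upper-quartile and RLE factors, no filter on low counts, dispersions without robust shrinkage, a replicate block, DESeq2 1.42.0, fewer libraries, and leaving out each library. On simulated counts, with 50 changed genes per fold, the test recovered 26% of 1.5-fold, 74% of 2-fold, 96% of 4-fold and 98% of 8-fold changes. Of its 162 calls there 15 were false. Promoters are RefSeq windows of 300 bases.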

Additional observations from a re-analysis of the deposited data

Results flagged for a closer look

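The EDTA effect in Vector was tested against the mean EDTA effect in B4-4 and Addback by edgeR's quasi-likelihood test of that difference. It differed in 29 of the 30 genes with the largest changes under the naming rule, where 29.4% of all genes tested passed. The differences are in log2 units, Vector minus the mean of the others. They were positive for CYP1A1 (+8.14), CYP1B1 (+7.39), CREBRF (+3.93), ABCA6 (+3.81), TP73 (+3.72), RIPK4 (+3.70), TIPARP (+3.51), NR1D2 (+3.32), TSC22D1 (+3.06), H2BC5 (+2.87), DCN (+2.73), SNAI2 (+2.54), RASA3 (+2.47) and CDH2 (+2.14). They were negative for KLK7 (-10.34), A2ML1 (-8.99), KLK5 (-8.05), MUC16 (-7.46), AZGP1 (-6.24), PI3 (-6.15), CHAC1 (-5.49), CGN (-5.00), MAPK4 (-4.78), CLDN4 (-4.62), SPINK5 (-3.61), MACC1 (-3.21), MARCO (-3.07), TGM1 (-2.99) and PROM2 (-2.41). These genes were picked for their change in Vector, which also enters the difference. The choice therefore favoured both their passing and the direction of these values, and the share that passed is a description.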

How the results depend on the processing

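Of 173 called genes named by rule, 90 kept the call under every alternative, 83 lost it without some library, 14 lost it under some other alternative and 0 reversed. Leaving out 1 library gave 724 to 4020 genes called, 240 to 1790 higher, 484 to 2237 lower, and 2618 to 6078 with a difference between derivatives. Leaving out both B4-4 NA libraries gave 3983 called, 1740 higher and 2243 lower, and only the 4 Vector libraries gave 4672, 2131 and 2541. The cause was not tested. Upper-quartile factors gave 1179 higher and 1269 lower, with a shift of the median of 0.03, and DESeq2 gave 2473 called. The labels do not say whether replicate numbers pair the samples. The replicate deviations of EDTA and NA were nearly uncorrelated over genes (0.02437 in Vector), which cannot exclude pairing. With the number as a replicate block 2397 genes were called, 2263 of them shared. In the 4 Vector libraries with that block 5852 were called, 2754 higher and 3098 lower. Genes near 3 counts in a Vector library (0.135 to 0.173 CPM) have folds limited by depth.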

Other observations

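Of lysosome and autophagy genes 13% were called and of clock genes 26.7%, against 15.3% of all genes. SQSTM1, the autophagy receptor p62, stood at 483 and 528 CPM with EDTA, against 162 and 175 CPM with NA (+1.58 ± 0.12, adjusted p = 1.2e-05). FLCN, folliculin, a regulator of nutrient signalling at the lysosome, was at 23.7 and 26.2 CPM with EDTA, against 9.14 and 10.2 CPM with NA (+1.37 ± 0.19, adjusted p = 0.000602). Both EDTA libraries lay above both NA libraries for these genes, and both kept the call under every alternative. Of 23 tested lysosome and autophagy genes 2 rose and 1 fell, with a median of 0.03; the proteases CTSB (+0.15) and CTSD (-0.08) were not called. The count lower was 0 leaving out Vector EDTA 1, Vector EDTA 2, Vector NA 1, Vector NA 2, B4-4 EDTA 1, B4-4 EDTA 2, Addback NA 1 or Addback NA 2 and 2 leaving out B4-4 NA 1, B4-4 NA 2, Addback EDTA 1 or Addback EDTA 2, and the count higher was 5 leaving out B4-4 NA 1 or B4-4 NA 2. TEF, an output factor of the circadian clock, stood at 5.42 and 7.27 CPM with EDTA, against 1.06 and 1.49 CPM with NA (+2.30 ± 0.36, adjusted p = 0.00147). Of 15 clock genes 3 rose and 1 fell, with a median of 0.85. The repressor NR1D2 stood at 55.9 and 38.3 CPM with EDTA, against 13.3 and 12.1 CPM with NA (+1.89 ± 0.39, adjusted p = 0.0138). The NR1D2 call was lost with no filter on low counts (0.062) or without Vector EDTA 1 (0.0866), Vector NA 1 (0.0992) or Vector NA 2 (0.121). The count of clock genes higher was 1 leaving out Vector EDTA 1, Vector NA 1 or Vector NA 2 and 6 leaving out B4-4 NA 1 or B4-4 NA 2, and lower 0 leaving out Vector EDTA 1, Vector EDTA 2, Vector NA 1 or Vector NA 2.

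Of metabolic and housekeeping lists, 25.0% of fatty acid genes, 23.3% of ribosomal protein genes, 19.0% of cholesterol genes, 12% of glycolysis and hypoxia genes and 3.33% of respiratory chain genes were called, against 15.3% of all genes. Of 30 cytosolic ribosomal protein genes 7 rose and 0 fell, and all 30 had a positive log2 fold change, with a median of 0.27. RPL5, of the large subunit, stood at 1402 and 1426 CPM with EDTA, against 1048 and 1057 CPM with NA (+0.43 ± 0.10, adjusted p = 0.0111). The RPL5 call was lost without Vector EDTA 1 (0.0534), Vector EDTA 2 (0.0625), Vector NA 1 (0.106) or Vector NA 2 (0.104). The count was 0 leaving out Vector EDTA 1, Vector EDTA 2, Vector NA 1 or Vector NA 2, 1 leaving out B4-4 EDTA 1 or B4-4 EDTA 2, 3 leaving out Addback NA 1 or Addback NA 2, 13 leaving out Addback EDTA 1 or Addback EDTA 2 and 16 leaving out B4-4 NA 1 or B4-4 NA 2. Of 30 proteasome subunits 0 were called by edgeR or DESeq2 (median 0.02), with 1 higher and 1 lower at an unadjusted p under 0.05, and 1 was called lower leaving out B4-4 NA 1, B4-4 NA 2 or Addback EDTA 2. Of 30 respiratory chain and ATP synthase genes 1 rose, SDHD (+0.55 ± 0.13; median 0.11). The respiratory count was 0 leaving out Vector EDTA 1 or Vector NA 2, 2 leaving out B4-4 NA 2, Addback EDTA 1 or Addback EDTA 2 and 3 leaving out B4-4 NA 1, and the count lower was 1 leaving out B4-4 NA 1 or B4-4 NA 2. Glycolysis and hypoxia genes had 3 of 25 lower and 0 higher, with a median of -0.08, and GAPDH was at 0.00. Their count was 0 leaving out Vector EDTA 1, Vector NA 1 or Vector NA 2, 1 leaving out Vector EDTA 2, B4-4 EDTA 1 or B4-4 EDTA 2, 8 leaving out B4-4 NA 1 and 9 leaving out B4-4 NA 2, and the count higher was 2 leaving out B4-4 NA 1 or B4-4 NA 2. Cholesterol genes had 3 of 21 higher and 1 lower (median -0.05), with counts higher of 0 leaving out Vector EDTA 1, Vector NA 1 or Vector NA 2 and lower of 0 leaving out Vector EDTA 1, Vector NA 1, Vector NA 2, B4-4 EDTA 1, B4-4 EDTA 2, Addback NA 1 or Addback NA 2 and 2 leaving out Addback EDTA 1 or Addback EDTA 2. Fatty acid genes had 3 of 20 higher and 2 lower (median -0.17). FASN, fatty acid synthase, stood at 954 and 1118 CPM with EDTA, against 1629 and 1594 CPM with NA (-0.64 ± 0.14, adjusted p = 0.00967). The FASN call was lost without Vector EDTA 1 (0.125), Vector NA 1 (0.0832) or Vector NA 2 (0.0674). The counts were 0 leaving out Vector EDTA 1, Vector NA 1 or Vector NA 2 and 1 leaving out Vector EDTA 2, Addback NA 1 or Addback NA 2 for higher calls and 0 leaving out Vector EDTA 1, Vector NA 1 or Vector NA 2, 1 leaving out Vector EDTA 2, B4-4 EDTA 1, B4-4 EDTA 2, Addback NA 1 or Addback NA 2 and 4 leaving out B4-4 NA 1 or B4-4 NA 2 for lower calls. Of 8 pyruvate dehydrogenase genes 0 were called (median 0.25), with 2 higher and 1 lower at an unadjusted p under 0.05. DESeq2 called 1 higher, as did edgeR leaving out Addback EDTA 1 or Addback EDTA 2, and edgeR called 2 higher leaving out B4-4 NA 1 or B4-4 NA 2. Luminal mammary markers had 3 of 7 tested lower (42.9%) and basal markers 3 of 8 (37.5%), against 8.98% of all genes, with 0 higher in either list. The luminal marker FOXA1 stood at 2.69 and 2.75 CPM with EDTA, against 9.14 and 8.02 CPM with NA (-1.66 ± 0.27, adjusted p = 0.00195). Fewer markers of either kind were called leaving out any of the 4 Vector libraries.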
